A study of Mus musculus with 20 samples.

Results

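Perivascular and border macrophage genes were followed in bulk RNA sequencing of aged mouse brain after stroke. The set holds 10 genes (Mrc1, Cd163, Lyve1, Cd5l, F13a1, Pf4, Cbr2, Folr2, Stab1 and Ms4a7) of the 46078 genes in the count tables, taken by name as markers of these macrophages and matched to their Ensembl identifiers. The tissue came from wild type C57BL/6J mice, male per the methods and 18 months old, 7 weeks after DH stroke, in which the distal middle cerebral artery is occluded and the animal is made hypoxic. Starting 1 week after stroke, mice were injected under the skin 3 times a week for 6 weeks with PBS (vehicle) or with 4 g/kg hydroxypropyl-β-cyclodextrin (HPBCD), a ring of sugars that binds cholesterol. Each treatment was represented by 5 libraries of peri-infarct and 5 of contralateral tissue, 20 in all, and every mouse had a stroke, so no group is of uninjured brain. The infarct was removed before the tissue beside it was cut out by hand, and each library is RNA of the whole piece, with no sorting of cells.

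Border macrophages live at the edges of the brain, in the spaces around blood vessels, in the meninges and in the choroid plexus. They differ from microglia, the macrophages of the brain tissue itself, in carrying scavenger receptors that take up proteins, lipids and debris from blood and cerebrospinal fluid. Several of the same genes are also used by other cells, such as lymphatic endothelium (Lyve1), platelets (Pf4, F13a1) and infiltrating macrophages (Ms4a7). Cd5l has also been reported as high in foamy, lipid-laden macrophages after injury of the spinal cord. In bulk tissue, fewer cells of a type and less RNA per cell cannot be told apart.

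Libraries held 14445021 to 22171627 gene counts, at which 3 counts correspond to 0.135 to 0.208 CPM (counts scaled to a common library size, here by TMM over the 20 libraries), and floors cover counting error alone. As a check of the treatment labels, a list of 33 genes with a direction for HPBCD against vehicle in peri-infarct tissue was drawn from the text on the experiment. Of the 32 that could be tested, 0 moved in the listed direction and 32 the other way, 18 of them past the threshold of edgeR. The treatment labels and the listed directions therefore disagree. Another measure runs with the labels: the number of genes called between regions that the same text gives, before HPBCD is considered, lies nearer to that of the libraries labelled vehicle than to that of the libraries labelled HPBCD. DESeq2 called 4010 genes between regions in the former and 9684 in the latter. The figure legend for the text's number also names a limit on fold change, which these counts do not use, so the thresholds differ. From these, whether the labels of the treatments are exchanged or the listed directions are coded the other way could not be settled here. Vehicle and HPBCD below mean the libraries labelled so. If the labels were exchanged, both names would trade places throughout and every difference between treatments, the interaction included, would turn its sign. The contralateral libraries with the most RNA of fibroblasts and meninges stood apart from the rest: over 8 marker genes, vehicle contralateral replicate 2 had 408 CPM against 94.9 to 238 in the other 4, and HPBCD contralateral replicate 3 had 339 CPM against 113 to 195. HPBCD contralateral replicate 3 also had 639 CPM of 6 choroid plexus genes, against 1.86 to 6.92 in the other 4.

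All 10 genes were protein coding (coordinates are given on GRCm38 where each gene is described) and were detected, with 223 (Folr2) to 7987 (Stab1) counts over the 20 libraries. Per kilobase of exon, the mean level in vehicle contralateral tissue was highest for Stab1 at 1.27 ± 0.451 CPM per kb (SD, n = 5), followed by Pf4 at 0.594 ± 0.536, Mrc1 at 0.496 ± 0.37 and Cbr2 at 0.495 ± 0.219. The lowest were Cd5l at 0.11 ± 0.216 and Ms4a7 at 0.0486 ± 0.031 CPM per kb. In HPBCD peri-infarct tissue the order was led by Cd5l at 11.4 ± 11.6, Stab1 at 3.88 ± 1.39 and Ms4a7 at 2.07 ± 0.766, and Cd163 was lowest at 0.474 ± 0.0667 CPM per kb. The full order was Stab1, Pf4, Mrc1, Cbr2, Cd163, F13a1, Folr2, Lyve1, Cd5l and Ms4a7 in vehicle contralateral tissue and Cd5l, Stab1, Ms4a7, Pf4, Mrc1, Cbr2, Folr2, F13a1, Lyve1 and Cd163 in HPBCD peri-infarct tissue. Stab1 stood above the next gene by more than either SD in both orders, and all other neighbours in them lay within the larger of their SDs. The plot of CPM by library shows every value.

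**Figure D1:**
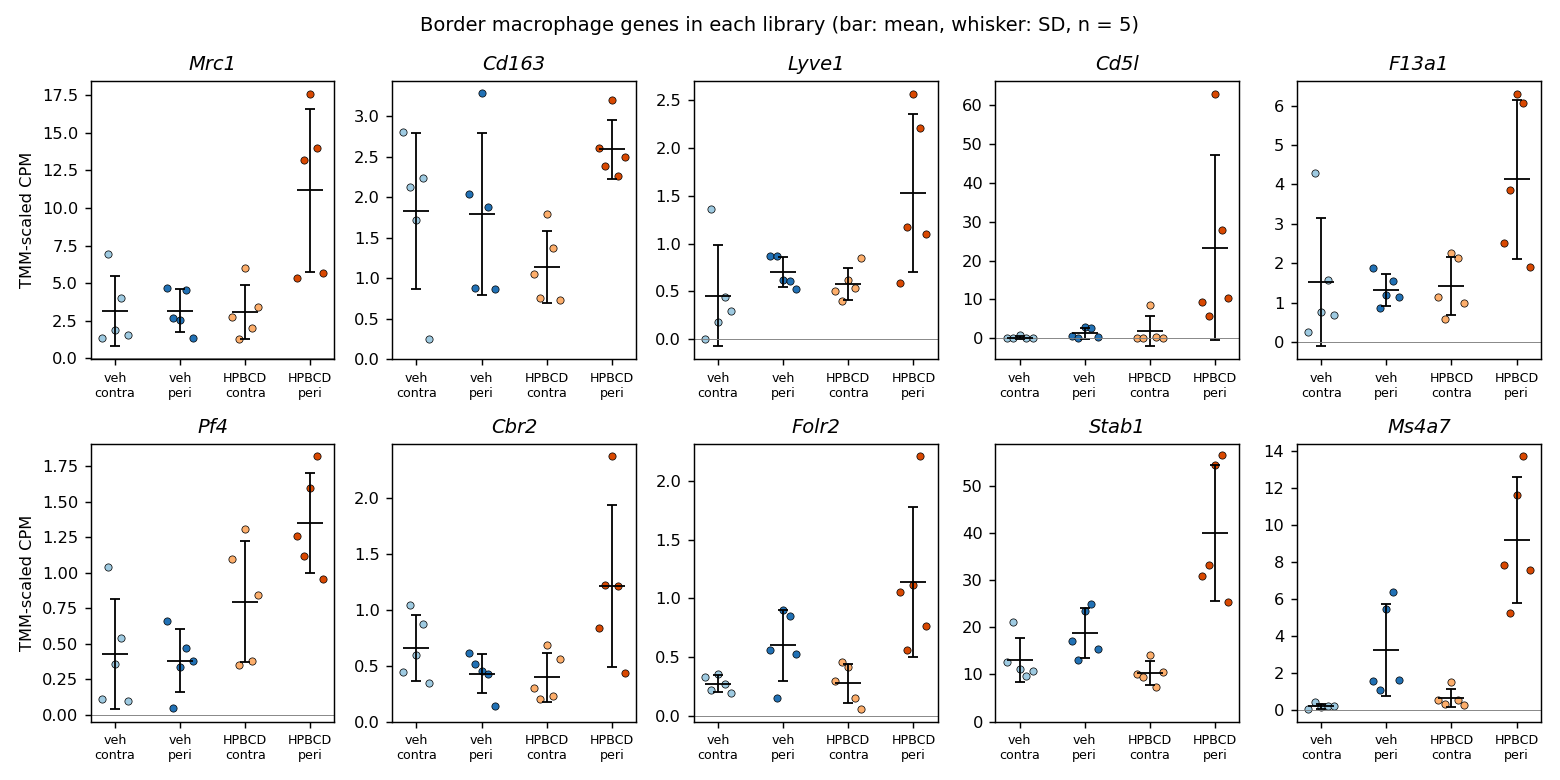
CPM (TMM-scaled, linear axes that differ between genes) of the 10 genes in 20 libraries, as 5 points for each region and treatment, with the mean as a bar and the SD as whiskers. HPBCD peri-infarct libraries hold the highest value of 9 of the 10 genes, the exception being Cd163, whose highest value of 3.28 CPM is in a vehicle peri-infarct library.

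Start-site sequence was at hand for 9 of the 10 genes, in 12 windows of 300 bases (250 before and 50 after the start, RefSeq, GRCm38.p6). The 6 motifs looked for on both strands were the PU.1 element GAGGAAGT, the MAF half-site TGCTGAC, the AP-1 site TGACTCA, the LXR half-site AGGTCA, the GATA site AGATAA and the TATA box TATAAA. PU.1 and MAF family factors are known regulators of macrophage genes, and for that reason the windows of Pf4, F13a1 and Cbr2 that hold such a match are shown, with the match in capitals. The Pf4 window is chr5:90772185-90772484 on the plus strand, the F13a1 window chr13:37049164-37049463 and the Cbr2 window chr11:120731972-120732271, both on the minus strand.
Pf4: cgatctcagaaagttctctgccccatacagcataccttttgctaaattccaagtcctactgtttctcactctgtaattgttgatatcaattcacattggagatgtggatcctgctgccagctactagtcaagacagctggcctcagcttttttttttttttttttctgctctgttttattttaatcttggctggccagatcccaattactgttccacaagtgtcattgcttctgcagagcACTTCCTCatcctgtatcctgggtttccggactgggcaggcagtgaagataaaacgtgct
F13a1: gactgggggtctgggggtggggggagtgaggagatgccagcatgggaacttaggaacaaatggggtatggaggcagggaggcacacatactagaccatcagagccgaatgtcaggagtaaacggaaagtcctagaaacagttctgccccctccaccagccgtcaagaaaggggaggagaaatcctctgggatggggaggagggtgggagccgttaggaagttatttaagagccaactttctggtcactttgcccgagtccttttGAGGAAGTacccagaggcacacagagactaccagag
Cbr2: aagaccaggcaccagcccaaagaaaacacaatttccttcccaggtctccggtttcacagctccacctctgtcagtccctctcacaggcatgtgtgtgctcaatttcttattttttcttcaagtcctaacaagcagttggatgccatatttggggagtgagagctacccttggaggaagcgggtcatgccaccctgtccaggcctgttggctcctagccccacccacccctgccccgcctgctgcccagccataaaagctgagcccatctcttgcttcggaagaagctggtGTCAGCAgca

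Counting the start site as position 1, the PU.1 match begins at position -10 in Pf4, on the minus strand, and at position 15 in F13a1. The MAF half-site in Cbr2 begins at position 41 on the minus strand. These motifs are found in 3.2% (PU.1) and 4.67% (MAF) of all 32851 windows of this length in the table. The AP-1 site was found in 1 window of Folr2 (5.2% of all windows) and the GATA site in Pf4 (11.2%), and the LXR half-site (16.3%) and TATA box (13.6%) in 0 of the 12. A match is a run of letters and not a measured binding site.

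The first comparison set peri-infarct against contralateral tissue in mice labelled vehicle. Of the 10 genes, 7 passed the filter on low counts and 1, Ms4a7, rose in peri-infarct tissue (edgeR, adjusted p under 0.05), where 20.2% of 15801 genes passed this threshold and 10.5% were higher. The log2 fold changes of the other 6 ran from -0.62 (Cbr2) to 0.6 (Lyve1), and several of them moved by more than their size when vehicle contralateral replicate 2 was left out. In the same libraries 10 of 10 pan-macrophage genes (Cd68, Itgam, Ptprc and others, median log2 fold change 1.61) and 10 of 10 homeostatic microglia genes (median 0.99) rose. The median over all genes tested was 0.015.

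Ms4a7 (ENSMUSG00000024672, chr19:11321039-11336146, minus strand) encodes a membrane-spanning protein that is carried by border and recruited macrophages and is low in microglia. Its values in vehicle peri-infarct libraries were 1.58, 1.08, 5.48, 6.36 and 1.63 CPM, and in vehicle contralateral libraries 0.055, 0.436, 0.178, 0.217 and 0.197 CPM. The groups did not overlap, as for 6.72% of all genes tested with peri-infarct higher. The log2 fold change was 3.84 (SE 0.63, edgeR adjusted p = 0.0032), and Ms4a7 was higher beside the infarct in 5 of 5 mice. Replicates 3 and 4 were the highest of the peri-infarct group, and the contralateral values rest on 1 to 8 counts a library, so that Ms4a7 passed the filter through its peri-infarct libraries.

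Mrc1 (ENSMUSG00000026712, chr2:14229392-14332057, plus strand) encodes the mannose receptor CD206, an endocytic receptor for glycoproteins. Its values were 4.69, 2.72, 2.54, 4.52 and 1.34 CPM in vehicle peri-infarct and 1.37, 6.92, 1.9, 4.02 and 1.57 CPM in vehicle contralateral libraries. The groups overlapped, and the highest value of all 10 was that of vehicle contralateral replicate 2, the library with the most fibroblast RNA of its group. The log2 fold change was -0.01 (SE 0.47, edgeR adjusted p = 0.993), and without that library it was 0.52.

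Stab1 (ENSMUSG00000042286, chr14:31139013-31168641, minus strand) encodes stabilin-1, a scavenger receptor of macrophages and sinusoidal endothelium. Its values were 17.1, 13, 23.5, 25 and 15.3 CPM in vehicle peri-infarct libraries against 12.6, 21.1, 11.1, 9.67 and 10.7 CPM in vehicle contralateral libraries. Only contralateral replicate 2 reached into the peri-infarct range. The difference of 0.51 (log2, SE 0.24, adjusted p = 0.151 by edgeR) did not pass the threshold, whereas without vehicle contralateral replicate 2 it was 0.77 (SE 0.19, edgeR adjusted p = 0.0273). Exons of Stab1 share 112 bp of 10288 bp with Nt5dc2 on the other strand.

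The other members did not pass the threshold in the vehicle libraries. Among receptors, Cd163 (chr6:124304656-124330527, plus strand), the haemoglobin-haptoglobin receptor, had a log2 fold change of -0.04 (SE 0.52), and Lyve1 (chr7:110850607-110863239, minus strand), a hyaluronan receptor, of 0.6 (SE 0.64). F13a1, the clotting transglutaminase subunit, had -0.21 (SE 0.57), and Cbr2, a carbonyl reductase, had -0.62 (SE 0.41), with edgeR adjusted p-values of 0.312 to 0.967 over these 4 genes. Without vehicle contralateral replicate 2, the values were 0.68 for F13a1, 1.58 for Lyve1, -0.38 for Cbr2 and 0.03 for Cd163, so the signs of F13a1 and Cd163 turned with that library. Cd5l, Pf4 and Folr2 did not pass the filter, and in a fit without one their log2 fold changes were 2.57 (SE 1.02), -0.18 (SE 0.64) and 1.09 (SE 0.47), at adjusted p = 0.139 to 0.891 by edgeR.

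The same regions were then compared in mice labelled HPBCD, where all 10 genes passed the filter. In peri-infarct tissue 9 of the 10 genes rose, all but Pf4, with fold changes of 2.3 (Cd163) to 14.6 (Ms4a7). Much of the transcriptome moved in this comparison, as 54.6% of 16047 genes passed the threshold and 30.3% were higher in peri-infarct tissue. The median log2 fold change was 1.74 for the 10 genes and 0.032 for all genes tested. It was 2.56 for the pan-macrophage genes, 4.2 for 12 genes of lipid-laden and disease-associated macrophages (Trem2, Spp1, Gpnmb and others) and 1.37 for homeostatic microglia genes, with 10 of 10, 12 of 12 and 10 of 10 called. Lyve1, Cd5l, Folr2 and Ms4a7, which fell below the filter among contralateral libraries, passed it here through their peri-infarct libraries. Folr2 was at 0.454 CPM at most contralaterally. The count of 9 called genes includes them and is therefore a description, as is the separation of Folr2 and Ms4a7 given next. In 4 of the 10 genes (Cd163, Folr2, Stab1 and Ms4a7) every peri-infarct library was above every contralateral one, as for 24.3% of all genes tested.

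Mrc1 measured 5.34, 13.2, 17.6, 14 and 5.69 CPM in HPBCD peri-infarct libraries and 2.74, 1.26, 6.0, 2.05 and 3.44 CPM in HPBCD contralateral libraries. Replicates 2, 3 and 4 were the high ones beside the infarct, while contralateral replicate 3 lay above the 2 lowest peri-infarct libraries. The log2 fold change was 1.86 (SE 0.42, edgeR adjusted p = 0.00237), and Mrc1 was higher beside the infarct in 5 of 5 mice.

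Stab1 measured 30.8, 33.1, 54.3, 56.4 and 25.3 CPM in HPBCD peri-infarct libraries against 10, 9.43, 14.2, 7.3 and 10.5 CPM in HPBCD contralateral libraries. The groups did not overlap, with replicates 3 and 4 highest beside the infarct. Stab1 rose by 1.95 (log2, SE 0.24, edgeR adjusted p = 2.18e-05).

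Ms4a7 measured 7.82, 5.27, 11.6, 13.7 and 7.56 CPM in HPBCD peri-infarct libraries and 0.549, 0.353, 1.52, 0.532 and 0.282 CPM in HPBCD contralateral libraries. Again the groups did not overlap, and replicate 3 was the highest of the contralateral libraries. Ms4a7 rose by 3.86 on the log2 scale (SE 0.4, adjusted p = 5.96e-06 by edgeR).

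Cd5l (ENSMUSG00000015854, chr3:87357881-87371073, plus strand) encodes a secreted scavenger receptor protein of tissue macrophages, also called AIM. Its values were 9.46, 5.83, 62.8, 27.9 and 10.5 CPM in HPBCD peri-infarct libraries, which rest on 115 to 1297 counts. In HPBCD contralateral libraries it was at 0, 0, 8.69, 0.38 and 0 CPM, so that 1 library, replicate 3 with 126 counts, held nearly all of the group's 131 counts and lay above 1 of the peri-infarct libraries. The mouse of replicate 3 was the highest on both sides of the brain. Cd5l rose by 3.77 (SE 1.1, edgeR adjusted p = 0.011), and without HPBCD contralateral replicate 3 it was 8.21 (SE 1.15), a value that rests on a group with 5 counts in 4 libraries. DESeq2 gave an adjusted p of 0.103 with all 10 libraries.

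Among the other receptors, Cd163 measured 2.61, 2.38, 3.2, 2.26 and 2.49 CPM beside the infarct against 1.05, 0.756, 1.79, 1.37 and 0.733 CPM contralaterally, with no overlap (log2 fold change 1.2, SE 0.26, edgeR adjusted p = 0.00175). Folr2 (chr7:101839988-101857194, minus strand), the folate receptor β of resident macrophages, rose by 1.99 (SE 0.49, edgeR adjusted p = 0.00381) from 0.0564 to 0.454 CPM contralaterally to 0.558 to 2.21 CPM beside the infarct. Exons of Folr2 share 975 bp of 1546 bp with Gm10602 on the other strand, so its counts are uncertain. Lyve1 rose by 1.38 (SE 0.4, edgeR adjusted p = 0.0109), with 0.589 to 2.57 CPM beside the infarct and 0.403 to 0.846 CPM on the other side, which overlap. Of 5 lymphatic endothelium genes, 3 were tested and Prox1 and Pdpn rose in the same comparison, while Flt4 differed by -0.06 (SE 0.19). Mmrn1, another lymphatic gene, had a mean of 0.0198 CPM beside the infarct and 0.0414 CPM opposite it.

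For the secreted and enzymatic members, F13a1 rose by 1.55 (log2, SE 0.41, edgeR adjusted p = 0.0062) and Cbr2 by 1.62 (SE 0.48, edgeR adjusted p = 0.0122). F13a1 ran from 1.91 to 6.3 CPM beside the infarct and from 0.605 to 2.27 CPM contralaterally, and Cbr2 from 0.431 to 2.37 and from 0.202 to 0.689 CPM, so both groups overlapped. The Cbr2 call was lost with limma voom (adjusted p = 0.0543). Pf4, the platelet factor 4 chemokine that border macrophages also make, differed by 0.75 on the log2 scale (SE 0.36, adjusted p = 0.0946 by edgeR), which was 0.97 (adjusted p = 0.0446) without HPBCD contralateral replicate 3.

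Within mice, all genes but Cbr2 were higher beside the infarct than opposite it in 5 of 5 animals labelled HPBCD, and Cbr2 in 4 of 5. In animals labelled vehicle this was so for Ms4a7 and Cd5l in 5 of 5, for Lyve1, Folr2 and Stab1 in 4, for Mrc1 and F13a1 in 3, for Cd163 and Pf4 in 2 and for Cbr2 in 1. The plot of both regions of each mouse shows this for 4 genes.

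**Figure D2:**
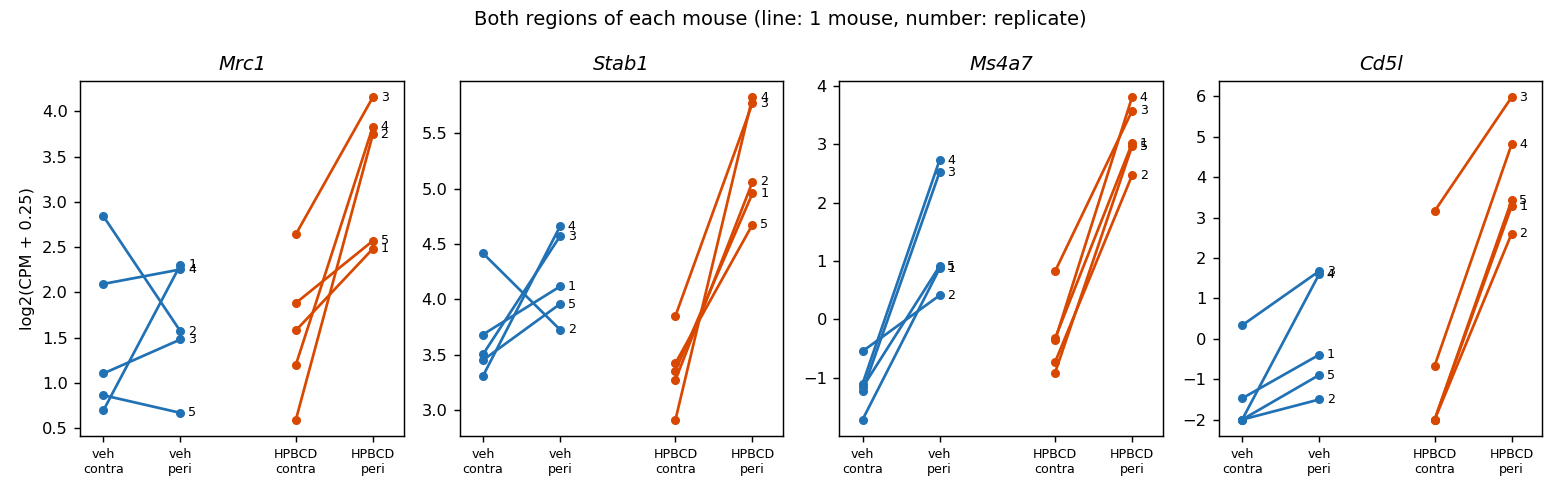
log2(CPM + 0.25) of Mrc1, Stab1, Ms4a7 and Cd5l in contralateral and peri-infarct tissue, with 1 line for each of 5 mice labelled vehicle (blue) and 5 labelled HPBCD (orange), numbered by replicate. All lines rise for Ms4a7 and Cd5l, and all 5 HPBCD lines rise for Mrc1 and Stab1, whereas vehicle replicates 2 and 5 fall for Mrc1 and vehicle replicate 2 for Stab1.

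Peri-infarct tissue of the treatments was compared next, over different mice. All 10 genes passed the filter, and 7 rose in libraries labelled HPBCD, where 21.4% of 16224 genes passed the threshold and 12.4% were higher. These were Cd5l, Mrc1, Pf4, F13a1, Ms4a7, Cbr2 and Stab1, with fold changes of 2.12 (Stab1) to 17.6 (Cd5l). The median log2 fold change was 1.5 for the 10 genes, 0.014 for all genes tested and 0.68 for the 10 pan-macrophage genes, 0 of which passed the threshold. In the same comparison the median was 2.4 for 8 fibroblast and meningeal genes and 1.74 for 2 monocyte genes. It was 1.01 for the 12 lipid-laden and disease-associated genes, 0.87 for 17 other border macrophage genes and 0.37 for the homeostatic microglia genes. In 5 genes (Mrc1, Cd5l, F13a1, Pf4 and Stab1) every HPBCD library was above every vehicle library, as for 7.47% of all genes tested. Pf4, at 0.663 CPM at most in vehicle, and Cd5l, with a vehicle median of 0.51 CPM, passed the filter through their HPBCD libraries. The counts of 7 and 5 include both genes and are therefore a description. The peri-infarct libraries labelled HPBCD and vehicle are also used in the comparisons of regions above.

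Mrc1 rose by 1.81 (SE 0.41, edgeR adjusted p = 0.0171), and its lowest HPBCD value of 5.34 CPM was above the highest vehicle value of 4.69 CPM. Stab1 rose by 1.08 (SE 0.25, edgeR adjusted p = 0.0189), and its groups were separated only between 25 and 25.3 CPM. Cd5l rose by 4.14 (SE 0.86, edgeR adjusted p = 0.0148), from vehicle values of 0.51, 0.103, 2.94, 2.78 and 0.287 CPM to the HPBCD values given above. The lowest HPBCD library had 5.83 CPM, and the 5 HPBCD values spanned over 10-fold among themselves.

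Pf4 (ENSMUSG00000029373, chr5:90772435-90773383, plus strand) measured 1.26, 1.12, 1.6, 1.82 and 0.957 CPM in HPBCD peri-infarct libraries and 0.663, 0.0513, 0.339, 0.471 and 0.383 CPM in vehicle peri-infarct libraries. The groups did not overlap, although the values rest on 1 to 33 counts a library, and the log2 fold change was 1.79 (SE 0.41, edgeR adjusted p = 0.018). Of 6 platelet and megakaryocyte genes, 3 were tested and 1 rose in the same comparison, Itga2b by 0.58 (SE 0.18, edgeR adjusted p = 0.0411). Gp1bb, the most abundant of the 6, differed by -0.39 (SE 0.22) and Gp1ba by 0.05 (SE 0.38). The summed level of the 6 was 11.6 to 23.2 CPM in HPBCD and 15.8 to 28.8 CPM in vehicle peri-infarct libraries. Ppbp, which neighbours Pf4 and is a defining platelet gene, was at a mean of 0.181 ± 0.207 CPM in HPBCD and 0.07 ± 0.0717 CPM in vehicle peri-infarct libraries (SD, n = 5 each).

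F13a1 (ENSMUSG00000039109, chr13:36867178-37050244, minus strand) measured 2.52, 3.85, 6.3, 6.07 and 1.91 CPM in HPBCD and 1.89, 0.872, 1.19, 1.55 and 1.15 CPM in vehicle peri-infarct libraries. HPBCD replicates 3 and 4 were highest, and the groups met at 1.89 and 1.91 CPM without overlap. F13a1 rose by 1.62 (log2, SE 0.36, edgeR adjusted p = 0.0166).

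Ms4a7 rose by 1.51 (SE 0.47, edgeR adjusted p = 0.0434) and Cbr2 by 1.49 (SE 0.46, edgeR adjusted p = 0.043), both with overlap between groups. Vehicle replicates 3 and 4, at 5.48 and 6.36 CPM of Ms4a7, reached above the lowest HPBCD library. Both calls lay close to the threshold. That of Ms4a7 was lost on leaving out any 1 of replicates 1, 2 and 5 of vehicle peri-infarct and 1, 3, 4 and 5 of HPBCD peri-infarct (adjusted p 0.0519 to 0.0993). That of Cbr2 was lost without any 1 of the 5 vehicle peri-infarct libraries or HPBCD peri-infarct replicate 3 or 4 (adjusted p 0.0514 to 0.112), with limma voom (0.0973) and without the filter (0.0546).

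HPBCD peri-infarct replicate 3 was the highest library for Mrc1, Cd5l, Lyve1, F13a1 and Cbr2. Without it, 5.03% of 16354 genes passed the threshold in this comparison, against 21.4% with it, and 2 of the 10 genes did, Cd5l (log2 fold change 3.33, edgeR adjusted p = 0.0427) and F13a1. The log2 differences of the others were then 1.58 for Mrc1, 1.72 for Pf4 and 0.95 for Stab1, at adjusted p = 0.0503, 0.0513 and 0.0537 by edgeR.

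The remaining 3 genes did not pass the threshold between treatments. For Lyve1 the log2 difference was 1.1 (SE 0.38, adjusted p = 0.0597 by edgeR), which passed with DESeq2 (0.0365) and without HPBCD peri-infarct replicate 1 (0.0226). For Folr2 it was 0.91 (SE 0.45, edgeR adjusted p = 0.156). Cd163 had 0.54 (SE 0.34, edgeR adjusted p = 0.257), with the vehicle libraries ranging from 0.862 to 3.28 CPM and the HPBCD libraries from 2.26 to 3.2 CPM, and it passed without vehicle peri-infarct replicate 3 (0.87, edgeR adjusted p = 0.0467).

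**Figure D3:**
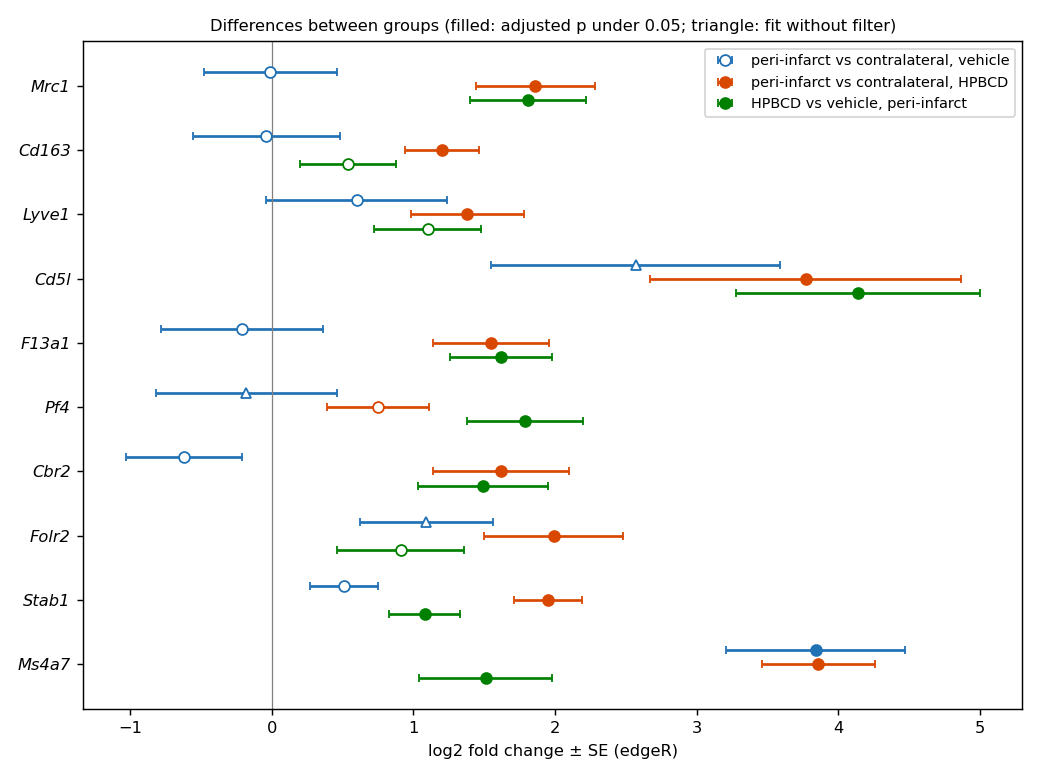
log2 fold change with SE (edgeR) of the 10 genes for peri-infarct against contralateral tissue in mice labelled vehicle (blue) and HPBCD (orange) and for HPBCD against vehicle in peri-infarct tissue (green). Filled symbols passed an adjusted p of 0.05, and triangles are genes below the low-count filter, taken from a fit without it; 1 blue, 9 orange and 7 green symbols are filled.

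In contralateral tissue, 5 of the 10 genes passed the filter and 0 differed between treatments, where edgeR called 0.0% of 15469 genes. Of 15469 genes, 0.957% had every HPBCD library above every vehicle library, and so had 0 of the 10. At an unadjusted p under 0.05 there were 1224 genes, none of them among these 5, and DESeq2 called 53 genes (0.461%), but of these 5 it gave an adjusted p for Stab1 alone (0.679). On the log2 scale the differences were -0.04 for Mrc1 (SE 0.48), -0.7 for Cd163 (SE 0.46), -0.13 for F13a1 (SE 0.6), -0.74 for Cbr2 (SE 0.43) and -0.35 for Stab1 (SE 0.22). The signs for Mrc1 and F13a1 rest on 1 library, as without vehicle contralateral replicate 2 they were at 0.47 and 0.75, and without HPBCD contralateral replicate 3 at -0.42 and -0.36. Stab1 was at -0.11 without vehicle contralateral replicate 2. Without a filter, Ms4a7 had 1.51 (SE 0.57, edgeR adjusted p = 0.675) and Cd5l 2.99 (SE 1.31, edgeR adjusted p = 0.685), the latter on HPBCD contralateral replicate 3.

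Whether the region difference itself differed between treatments was tested with the interaction over 20 libraries. Of the 10 genes, 2 passed, where 9.41% of 16758 genes did: Stab1 (1.43, log2, SE 0.36, edgeR adjusted p = 0.024) and Cbr2 (2.22, SE 0.66, edgeR adjusted p = 0.0409). Cbr2 (ENSMUSG00000025150, chr11:120729489-120732114, minus strand) was lower beside the infarct in 4 of 5 vehicle mice and higher in 4 of 5 HPBCD mice. Its vehicle values were 0.612, 0.513, 0.452, 0.424 and 0.144 CPM beside the infarct and 0.44, 1.04, 0.592, 0.87 and 0.344 CPM contralaterally. The HPBCD values were 0.841, 1.22, 2.37, 1.21 and 0.431 CPM beside the infarct and 0.299, 0.202, 0.689, 0.228 and 0.564 CPM contralaterally. The 3 highest of these 20 values were those of HPBCD peri-infarct replicates 2, 3 and 4.

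The Cbr2 interaction was lost in 15 of 27 alternative fits and its adjusted p ran from 0.0194 to 0.0866. The Stab1 interaction was lost without HPBCD peri-infarct replicate 3 (0.0514) and without replicate 2 of vehicle peri-infarct (0.0503), fits in which 3.29% and 3.12% of all genes passed. For Mrc1 the interaction was 1.85 (SE 0.68, edgeR adjusted p = 0.0822), which passed with DESeq2 (0.0391) and without HPBCD contralateral replicate 3 (0.0483). Ms4a7 had an interaction of 0.01 (SE 0.57, edgeR adjusted p = 0.992), as its region differences of 3.84 and 3.86 were nearly equal, and leaving out vehicle contralateral replicate 2 gave -0.39, whereas dropping HPBCD contralateral replicate 3 gave 0.56. For Cd5l it was 1.15 with an SE of 2.14, and leaving out 1 library moved it from -1.55 (without vehicle contralateral replicate 3) to 5.59 (without HPBCD contralateral replicate 3).

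RNA of other cell types moved along with these genes. Over all genes tested, 10.5% were called higher in vehicle regions, 30.3% in HPBCD regions and 12.4% between treatments beside the infarct. The interaction called 9.41%, and in HPBCD regions 24.3% had every peri-infarct library above every contralateral one. Of the 8 fibroblast and meningeal genes (Dcn, Lum, Col1a1, Col1a2, Col3a1, Pdgfra, Igf2 and Slc6a13), 2 rose beside the infarct in vehicle, 8 in HPBCD, and 7 rose in HPBCD against vehicle peri-infarct tissue. Beside the infarct their summed level was 167 to 450 CPM with vehicle and 626 to 1410 CPM with HPBCD, and contralaterally 94.9 to 408 and 113 to 339 CPM, with none of the 8 at 0 in any group. Summed choroid plexus genes ran from 6.56 to 76.4 CPM in vehicle and from 27.1 to 687 CPM in HPBCD peri-infarct libraries, with HPBCD replicate 3 highest. Summed red blood cell genes ran from 5.46 to 10.8 and from 9.13 to 80.1 CPM, and 6 neuronal genes from 5300.0 to 7390.0 and from 3040.0 to 5420.0 CPM in the same groups. Of 6 monocyte genes, 2 were tested and both, Ccr2 and Fn1, rose in HPBCD against vehicle peri-infarct tissue. Of 4 oligodendrocyte genes, 0 were called in vehicle regions and 4 in HPBCD regions, where their summed level was 9480.0 to 14800.0 CPM beside the infarct and 4170.0 to 5280.0 CPM opposite it, without overlap, and Mbp passed in the interaction. Of 4 astrocyte genes, 3 rose beside the infarct in each treatment (Aqp4, Gja1 and Slc1a3) and Gja1 rose in HPBCD against vehicle peri-infarct tissue. The part of these cells and tissues in the results was not tested.

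Mrc1 followed the fibroblast genes closely across libraries. Its log2 CPM correlated with their summed level with r = 0.92 over 20 libraries, and with r = 0.86 after the mean of each group was subtracted. With the summed pan-macrophage genes, the corresponding values were 0.54 and -0.02. Per 100 CPM of fibroblast genes, Mrc1 was at 1.17 ± 0.398 CPM beside the infarct and 1.59 ± 0.132 CPM contralaterally with vehicle, and at 1.19 ± 0.549 and 1.65 ± 0.393 CPM with HPBCD (SD, n = 5 each). The make-up of this sum differed between groups. Igf2 held 101 of 276 CPM beside the infarct and 107 of 194 CPM contralaterally with vehicle, and 255 of 965 and 103 of 185 CPM with HPBCD. What this does to values on this scale, here and below, was not tested. Libraries share depth and dissection across genes, and these correlations are descriptions without a test.

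The other genes spread between the pan-macrophage and fibroblast patterns. With group means subtracted, r with the fibroblast genes was 0.86 for Pf4, 0.8 for F13a1, 0.79 for Stab1, 0.76 for Ms4a7 and 0.71 for Cbr2, and 0.4 for Folr2. Folr2 and Ms4a7 had the highest r with the pan-macrophage genes, 0.66 and 0.59. Per 100 CPM of fibroblast genes, Ms4a7 was at 1.09 ± 0.589 in vehicle peri-infarct and 0.12 ± 0.0564 CPM in vehicle contralateral libraries, so in these libraries it stood higher beside the infarct on this scale also. Mrc1 and Cbr2 were lower there by more than either SD, and the other 7 lay within the larger SD. With HPBCD, Ms4a7 and Cd5l were higher beside the infarct by more than either SD, Cd163, Lyve1, Pf4, Cbr2 and Stab1 were lower, and Mrc1, F13a1 and Folr2 lay within it.

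Between treatments beside the infarct, the order of the groups depended on what the members were set against. Relative to fibroblast genes, Cd5l was higher with HPBCD, at 2.05 ± 1.4 CPM per 100 CPM of fibroblast genes in HPBCD and 0.41 ± 0.414 in vehicle peri-infarct libraries (SD, n = 5 each), with overlap. Stab1 was lower with HPBCD, at 4.23 ± 0.596 against 7.17 ± 1.45, and so was Cd163, at 0.3 ± 0.0994 against 0.651 ± 0.301, both without overlap. Folr2 was at 0.117 ± 0.0337 against 0.216 ± 0.0921. For Mrc1, Lyve1, F13a1, Pf4, Cbr2 and Ms4a7 the means lay within the larger SD of each other.

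Relative to pan-macrophage genes, the HPBCD mean was the higher for all 10 genes beside the infarct. It was so by more than either SD for Ms4a7, at 1.48 ± 0.303 against 0.749 ± 0.395 CPM per 100 CPM of pan-macrophage genes, and for Pf4, at 0.227 ± 0.0547 against 0.101 ± 0.0715 (SD, n = 5 each). The other 8 lay within the larger SD, among them Mrc1 at 1.95 ± 1.15 against 0.928 ± 0.528, Stab1 at 6.67 ± 2.14 against 5.1 ± 1.17 and Cd163 at 0.451 ± 0.139 against 0.449 ± 0.142. Cd5l, at 3.72 ± 3.94 against 0.27 ± 0.246, was also among these, although its groups did not overlap. Between regions on this scale, Ms4a7 was higher beside the infarct by more than either SD in both treatments. Cd163 and Stab1 were lower in both, Cbr2 and Folr2 in vehicle and Lyve1 and Pf4 in HPBCD, and the rest lay within the larger SD.

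**Figure D4:**
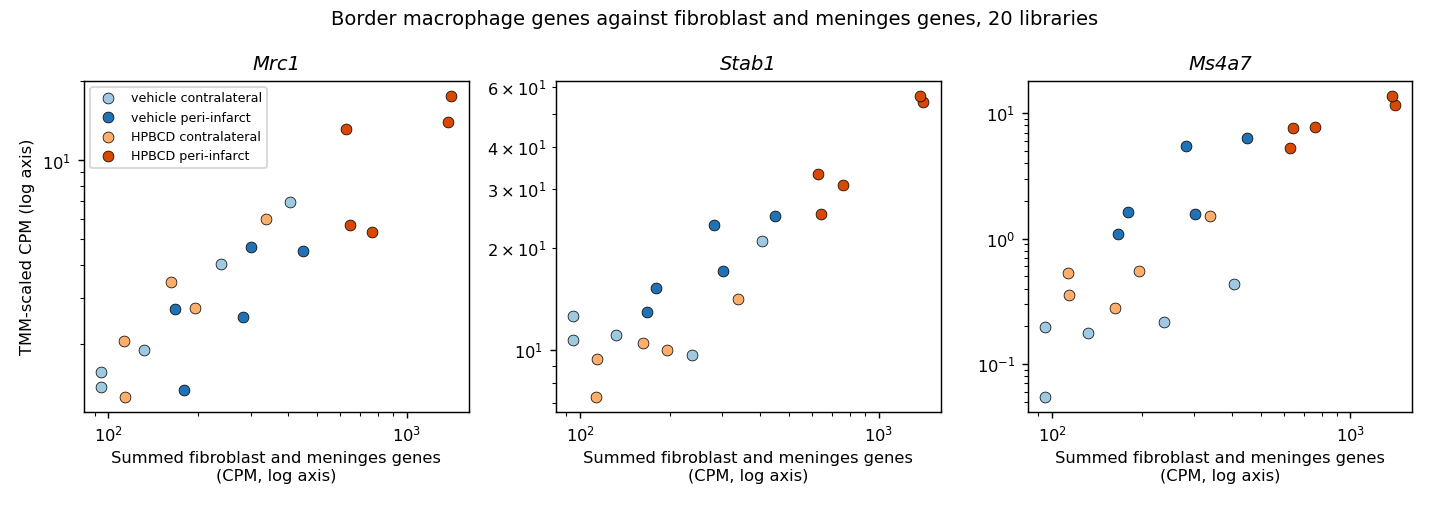
CPM of Mrc1, Stab1 and Ms4a7 (log axis) against the summed CPM of 8 fibroblast and meningeal genes (log axis) in 20 libraries, coloured by group. Mrc1 and Stab1 lie along 1 band over all groups, while for Ms4a7 the contralateral libraries of both treatments lie below the peri-infarct libraries at the same fibroblast level, those labelled vehicle lowest, down to 0.055 CPM.

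Among the 10 genes, the pair most alike over 20 libraries was Mrc1 and F13a1 (r = 0.901), and the least alike were Cd163 and Lyve1 (r = 0.219), of 45 pairs. With group means subtracted, the highest was Mrc1 and Cbr2 (0.876) and the lowest Lyve1 and Folr2 (-0.146). With the mean of the other 9 genes, the lowest r was that of Cd163 over the 20 libraries (0.606) and that of Folr2 with group means subtracted (0.361, against 0.469 for Cd163). Of 13664 other protein-coding genes, those most like the mean of the 10 were Ogn and Ddr2 (r = 0.979 each), Pcolce (0.977), Slc13a4 (0.973), Slc6a20a (0.972), Foxc2 (0.971), Aox3 (0.97) and Dab2 (0.97). With group means subtracted, Ddr2 (0.965), Angpt2 (0.957) and Dab2 (0.945) led. Ogn encodes a small proteoglycan of connective tissue, Ddr2 a collagen receptor and Pcolce an enhancer of collagen processing.

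Of 24 other genes linked to border macrophages, 10 were tested and 6 rose beside the infarct in vehicle, 12 of 16 rose in HPBCD, and 6 of 17 rose in HPBCD against vehicle peri-infarct tissue, with 0 of 8 called contralaterally and 2 of 17 in the interaction. Over all genes tested, 10.5%, 30.3% and 12.4% were called higher in the first 3 of these, and 9.41% were called in the interaction, near the share of these genes. Genes that passed the filter only through the group where they are high had to differ, so these counts are a description. Siglec1, the sialic acid receptor sialoadhesin, measured 2.75 ± 3.45 CPM beside the infarct and 0.0982 ± 0.0899 CPM contralaterally in vehicle, and 4.18 ± 1.93 and 0.264 ± 0.219 CPM in HPBCD (SD, n = 5 each), and was called in both. Ms4a6c, a relative of Ms4a7, measured 1.48 ± 0.939 CPM beside the infarct and 0.114 ± 0.118 CPM contralaterally in vehicle, and 2.71 ± 0.999 and 0.193 ± 0.242 CPM in HPBCD (SD, n = 5 each). Between treatments beside the infarct, the scavenger receptor gene Colec12 rose by 1.85 (SE 0.36, edgeR adjusted p = 0.0132), Dab2, an endocytic adaptor, by 1.73 (SE 0.32, adjusted p = 0.0128) and Maf, a transcription factor, by 0.76 (SE 0.16, adjusted p = 0.0148). Maf differed by -0.02 between regions in vehicle.

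Other members of the Ms4a family were measured beside Ms4a7. Of 13 other Ms4a genes, 3 passed the filter in vehicle regions and 5 in HPBCD regions, several of them only through the peri-infarct libraries, where they are high, so no count of calls is given. Between treatments beside the infarct, 0 of 5 passed the threshold. Ms4a14, next to Ms4a7 on the chromosome, measured 1.16 ± 0.758 CPM beside the infarct and 0.049 ± 0.0461 CPM contralaterally in HPBCD (SD, n = 5 each). Ms4a6d rose by 1.77 in vehicle (SE 0.42, edgeR adjusted p = 0.0147) and by 3.11 in HPBCD (SE 0.33, edgeR adjusted p = 7.02e-06).

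Of 10 factors that set macrophage growth and identity, 6 of 9 tested rose beside the infarct in vehicle, where 10.5% of all genes were called higher, and 8 of 9 in HPBCD, where 30.3% were. Csf1r, the receptor for the growth factor CSF1, rose by 1.26 (SE 0.19, edgeR adjusted p = 0.00257) and 1.7 (SE 0.14, edgeR adjusted p = 1.37e-06), and Csf1 itself by 1.15 and 1.97. Between treatments beside the infarct, Nr1h3, the cholesterol-sensing receptor LXRα, rose by 0.72 (SE 0.23, edgeR adjusted p = 0.0468), and Il34, the other CSF1R ligand and one made by neurons, fell by 0.49 (SE 0.13, edgeR adjusted p = 0.0263). Spic, known from the red pulp macrophages of the spleen that recycle haem iron, was at 0.151 ± 0.178 CPM at most, in HPBCD peri-infarct tissue.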

How the data were processed

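The authors prepared stranded mRNA libraries and, per the labels and methods, used bcl2fastq 2.19, Trimmomatic 0.32, STAR 2.5.2b on GRCm38 and htseq-count. The deposited values are raw counts per Ensembl gene, with 1 table per library. The strand option and annotation release are not given in the sources used here. Symbols and coordinates came from GENCODE (GRCm38), which held 98.16% of the genes and 99.933% of the counts. Read pairs in no gene (4.39% to 9.5%), ambiguous (3.94% to 8.03%) or not uniquely aligned (16.58% to 24.3%) were left out.

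Differences in counts were fitted over all genes in edgeR 4.0.16 (R 4.3.3; glmQLFit and its quasi-likelihood test) with TMM factors and filterByExpr, in the 10 libraries of each comparison or all 20 for the interaction. P-values were adjusted by Benjamini-Hochberg over all genes tested, with a threshold of 0.05. SE is the log2 fold change divided by the square root of F. Correlations used log2 CPM with a prior count of 2. Alternatives were DESeq2 1.42.0, limma 3.58.1 voom, other scaling factors and filters, all 4 groups in 1 fit, a replicate block and leaving out libraries. All 10 genes were named in each comparison. From the lists, genes called in at least 1 comparison or among the 3 most abundant were open to naming, as were the 8 genes most like the members. The genes and lists were chosen with earlier results of these data known. The script was tested on simulated data. Titles give separate replicates. Within a treatment, the peri-infarct and contralateral table of each replicate number carry 1 common animal-like code in the file names, which was taken as the mouse. Deviations of the 10 such pairs from their group means had a mean r of 0.099, with 5 of 10 over 0.1, so the pairing rests on the code.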

Additional observations from a re-analysis of the deposited data

Results flagged for a closer look

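Among 40 sets of 5 libraries (10 genes in 4 groups), 4 held a library far from the other 4. For Cd5l these were vehicle contralateral replicate 3 at 1.01 CPM, against 0 to 0.11 CPM in the others, and HPBCD contralateral replicate 3 at 8.69 CPM, against 0 to 0.38 CPM. For Stab1, vehicle contralateral replicate 2 was at 21.1 CPM, against 9.67 to 12.6 CPM. For Ms4a7, HPBCD contralateral replicate 3 was at 1.52 CPM, against 0.282 to 0.549 CPM. At the limit used, chance marks about 5% of sets of normally distributed values. Low counts are not so distributed, so the rate for these sets is not known. Vehicle contralateral replicate 2 and HPBCD contralateral replicate 3 were also the contralateral libraries with the most fibroblast and meningeal RNA of their groups (408 and 339 CPM), and the part of that RNA in these values was not tested.

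The region difference differed between treatments by the interaction test of edgeR for Cbr2 (2.22 on the log2 scale, adjusted p = 0.0409) and Stab1 (1.43, adjusted p = 0.024).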

How the results depend on the processing

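Of 847 values of single genes under alternatives, 800 kept their direction and their side of the threshold or were not called in either fit, 38 lost a call, 9 gained one and 0 called values turned sign. Requiring at least 10 counts in every library left fewer of the 10 genes to test: 0 of 2 tested were called in vehicle regions (21.1% of all genes), 4 of 4 in HPBCD regions (54.7%), 4 of 6 between treatments beside the infarct (22.6%) and 1 of 2 in the interaction (11%), against 1, 9, 7 and 2 called with the main filter. The interaction count was also 1 with limma voom (24.5% of all genes) and without a filter (3.73%). Leaving out vehicle contralateral replicate 2 and HPBCD contralateral replicate 3, an alternative chosen after seeing the data, gave 2 in vehicle regions (14.1% of all genes), 10 in HPBCD regions (51.4%), where Pf4 gained its call, and 1 in the interaction (4.98%). Leaving out 1 library at a time gave 1 to 2 called genes for vehicle regions (12.5% to 24.4% of all genes), 9 to 10 for HPBCD regions (49.7% to 57.5%), 2 to 7 for treatments beside the infarct (5.03% to 32.5%), 0 for treatments contralaterally (0.0%) and 0 to 3 for the interaction (3.12% to 18.4%). The vehicle count was 2 without vehicle peri-infarct replicate 2 or vehicle contralateral replicate 2. For the interaction, 0 genes passed when HPBCD peri-infarct replicate 3 or replicate 2 of vehicle peri-infarct was left out, where 3.29% and 3.12% of all genes passed, against 9.41% with all libraries. The cause was not tested. With the replicate block (the pairing by mouse for regions, by number alone between treatments) the counts were 1, 9, 7, 0 and 2, and no count changed. Cd5l, Pf4 and Folr2 were below the filter on low counts in vehicle regions, and Lyve1, Pf4, Cbr2 and Folr2 had 223 to 313 counts over 20 libraries.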
